A study of Homo sapiens with 6 samples.

Results

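The carbonic anhydrases are zinc enzymes that convert carbon dioxide and water to bicarbonate and a proton, and back. They sit in different compartments, and they supply bicarbonate and protons to membrane transporters and to enzymes that fix bicarbonate. CA2, a fast cytosolic form, is known from red cells, osteoclasts and acid-secreting kidney and stomach cells, and its inherited loss in humans causes osteopetrosis with renal tubular acidosis. CA8 and CA11 are carbonic anhydrase-related proteins, which keep the fold but have lost catalysis.

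The family was followed in HEK-293T, an immortal line derived from embryonic kidney that expresses a viral T antigen. The study asked what loss of C17orf80, a protein of mitochondrial nucleoids, does to gene expression and mitochondrial transcription. Poly(A)-selected RNA was sequenced from 3 libraries labelled C17orf80 knockout, from cells given a guide RNA against C17orf80, and from 3 wild-type (WT) libraries, from cells given a non-targeting guide. Both groups were grown in DMEM with 10% serum, and the protocol given for all samples names puromycin at 3 μg/ml for selecting monoclonal cells of the knockout line; whether WT cells were selected likewise is not given in the sources used here. How many clones were used, and whether each library had its own culture, is not given in the sources used here. All p-values thus reflect spread between libraries that may be technical only, and clonal differences and effects of the guide cannot be told apart.

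CA2 was chosen because its reads were high and even in the libraries labelled knockout, so its difference between the groups is described without a test. With it were taken 9 other carbonic anhydrase genes by name, giving 10 genes out of 62348 features counted: CA2, CA3, CA13 and CA8 in the cytosol, CA5B in the mitochondrion, CA4, CA9, CA12 and CA14 at the cell membrane, and secreted CA11. Of the 10 genes, 7 passed the filter on low counts, and CA3, CA4 and CA9 did not. Levels below are counts scaled to library size by TMM (CPM), errors after ± are SD over n = 3 libraries, and log2 fold changes are labelled knockout over WT with standard errors. Adjusted p-values come from edgeR's quasi-likelihood test over all 17452 genes tested, where the threshold of 0.05 called 8.64% of genes higher, 6.5% lower and 15.1% in either direction.

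Gene counts per library ranged from 15942017 to 16122771 in the group labelled knockout and from 14982340 to 16278091 in WT. Replicate 1 labelled knockout stood apart. Across genes, Pearson's r of its log2 CPM was 0.932 with replicate 2 and 0.945 with replicate 3 of its group, whereas those replicates reached 0.987 with each other, and its TMM factor was 0.851 against 1.03 in each of them. C17orf80 itself (ENSG00000141219), the gene aimed at, had 56.4, 42.4 and 42.0 CPM in the libraries labelled knockout, against 25.8, 26.8 and 29.2 CPM in WT. The transcript was thus higher where it was labelled as knocked out (log2 fold change 0.78 ± 0.17, edgeR adjusted p = 0.0232). Its adjusted p lay between 0.0549 and 0.127 without replicate 3 labelled knockout or any 1 WT library, with the fold change in the same direction. Whole-gene counts cannot show whether a reading frame was disrupted, and the label is kept here as the name of the group. Of 10 genes listed as known from HEK-293 lines, 9 were tested, among them the developmental kidney gene PAX2 and the neurofilament gene NEFM; LHX1 was not, at 10 counts in the group labelled knockout and 18 in WT. The list summed to 718 to 797 CPM in the libraries labelled knockout and to 772 to 816 CPM in WT; CDH2 rose and NEFL and EYA1 fell.

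Sequence is shown for the membrane isozymes CA9, CA12 and CA14, because they occupy the same site in the cell and yet CA9 had 1 count over all libraries, while CA12 and CA14 had counts in each. The 250 bases before each gene's start are from RefSeq on GRCh38.p14, on the gene's own strand, 5′ to 3′; 4 of the 10 family members were matched in the RefSeq promoter table, and CA5B, the other one, is described by its motif counts. Capitals mark the core letters bound by hypoxia-inducible factors, searched as ACGTG and GCGTG on both strands (so also as CACGT and CACGC). CA9 is at chr9:35673678-35673927 on the plus strand, CA12 at chr15:63381847-63382096 on the minus strand and CA14 at chr1:150257524-150257773 on the plus strand.
CA9: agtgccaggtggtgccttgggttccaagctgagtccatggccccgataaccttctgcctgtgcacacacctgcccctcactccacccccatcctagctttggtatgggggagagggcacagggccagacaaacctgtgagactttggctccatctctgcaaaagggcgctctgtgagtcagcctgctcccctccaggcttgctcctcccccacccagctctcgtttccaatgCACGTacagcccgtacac
CA12: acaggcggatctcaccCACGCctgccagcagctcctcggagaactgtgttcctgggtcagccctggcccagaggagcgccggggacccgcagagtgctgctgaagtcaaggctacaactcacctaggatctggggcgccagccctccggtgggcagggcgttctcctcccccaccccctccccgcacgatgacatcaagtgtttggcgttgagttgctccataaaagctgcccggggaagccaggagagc
CA14: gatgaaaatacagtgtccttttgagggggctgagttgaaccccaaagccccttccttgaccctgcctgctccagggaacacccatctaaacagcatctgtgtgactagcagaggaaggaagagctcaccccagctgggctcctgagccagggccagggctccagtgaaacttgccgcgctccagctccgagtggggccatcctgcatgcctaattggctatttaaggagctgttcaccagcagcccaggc
The CA9 window holds 1 match, CACGT, which begins 18 bases before the gene's start, and the CA12 window holds 1, CACGC, 234 bases before it. The CA14 window holds 0, and that of CA5B holds 6. Of 35116 such windows in the table, 43.2% hold at least 1 match, so a match is common. The windows hold 5 CpG dinucleotides in CA9, 13 in CA12 and 3 in CA14, against a median of 11 over the table.

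Reads of the 8 catalytic isozymes were shared between compartments differently in the groups. In the libraries labelled knockout the cytosolic genes took 93.9 ± 1.24% of catalytic reads, the membrane genes 4.42 ± 0.414% and mitochondrial CA5B 1.70 ± 0.829%. In WT the cytosolic genes took 65.0 ± 0.972%, the membrane genes 27.2 ± 0.175% and CA5B 7.78 ± 0.803%. The cytosolic genes include CA2, so its reads, by which it was chosen, lower the other shares even where the reads of those genes do not change. Transcript lengths were not used here, so these are shares of reads and not of molecules.

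CA2 alone took 90.8%, 93.1% and 93.7% of catalytic reads in replicates 1 to 3 labelled knockout, with exact (Clopper-Pearson) 95% binomial intervals that lay between 90.1% and 94.2%. In WT it took 58.5%, 58.7% and 59.0%, with intervals between 56.0% and 61.3%; all intervals cover counting error only. The difference follows from the CA2 reads by which the gene was chosen. In bulk RNA, more cells with CA2 and more CA2 RNA per cell cannot be told apart. With CA2 left out, the other catalytic isozymes summed to 46.5, 40.5 and 39.0 CPM in the libraries labelled knockout and to 43.1, 43.7 and 44.4 CPM in WT, and the groups overlapped.

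**Figure D1:**
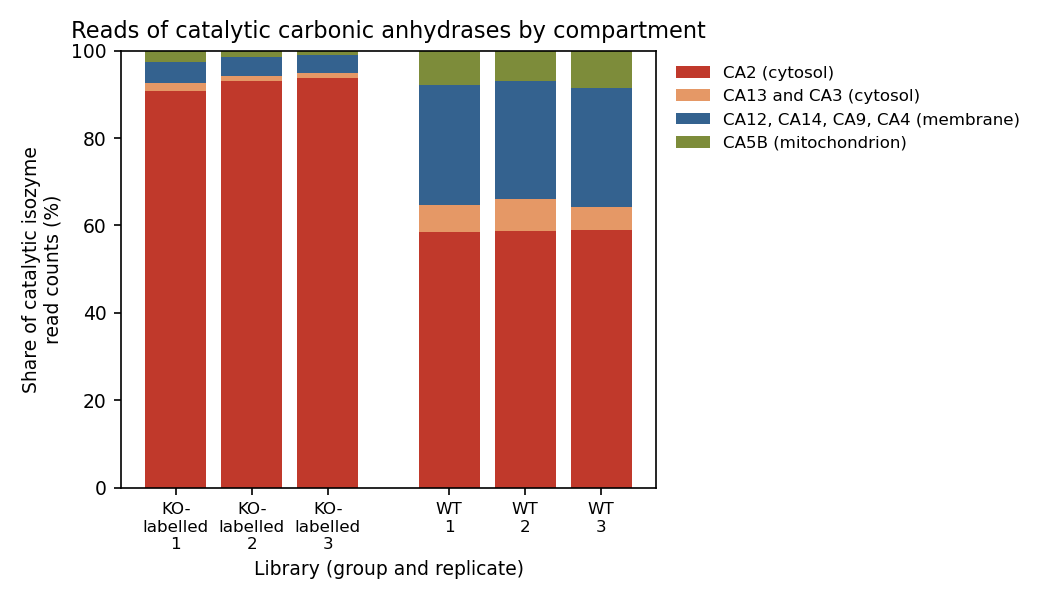
Share of the reads of the 8 catalytic carbonic anhydrases, in percent, by library: 3 bars for the group labelled knockout (KO-labelled) and 3 for WT, stacked by compartment with CA2 drawn apart from the other cytosolic forms. CA2 covers 90.8% to 93.7% of the bar in each library labelled knockout and 58.5% to 59.0% in each WT library.

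Among the catalytic isozymes other than CA2, the membrane genes took 52.8%, 62.7% and 64.2% of reads in replicates 1 to 3 labelled knockout, against 65.8%, 65.4% and 66.6% in WT. The 3 libraries labelled knockout all lay below WT. The difference was -6.06 percentage points (two-sided exact permutation p = 0.1, the lowest value possible with 3 libraries in each group). Leaving out replicate 1 labelled knockout, the lowest library, made it -2.51 points.

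Of the cytosolic isozymes, CA2 was several times higher in the libraries labelled knockout, CA13 did not pass the test and CA3 had too few counts for one. CA2 (ENSG00000104267, chromosome 8, positions 85464007 to 85481493 on GRCh38) had 6196, 8968 and 9628 counts in the libraries labelled knockout, or 458, 544 and 579 CPM, against 934, 1046 and 1043 counts in WT, or 60.7, 62.1 and 63.9 CPM. The 3 libraries labelled knockout were 7.36, 8.74 and 9.30 times the WT mean, with replicate 1 the lowest, and the WT libraries spanned 0.976 to 1.03 times it. The log2 fold change was 3.08 ± 0.15, the 220th highest of 17452, and it stayed between 3.01 and 3.18 whichever library was left out. The value of CA8 ranked 265th.

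CA13 (ENSG00000185015, chromosome 8, positions 85245458 to 85284073), a widely expressed cytosolic isozyme, had 8.43, 5.64 and 7.69 CPM in the libraries labelled knockout and 5.92, 7.36 and 5.15 CPM in WT. The groups overlapped, and its log2 fold change of 0.24 ± 0.25 did not pass edgeR (adjusted p = 0.527). CA3 (ENSG00000164879, chromosome 8, positions 85438859 to 85449040), the isozyme of skeletal muscle, had 5, 10 and 3 counts in the libraries labelled knockout and 9, 7 and 8 in WT. Its ratio over the groups was 0.736, with a 95% counting interval from 0.376 to 1.41 that spans no change.

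**Figure D2:**
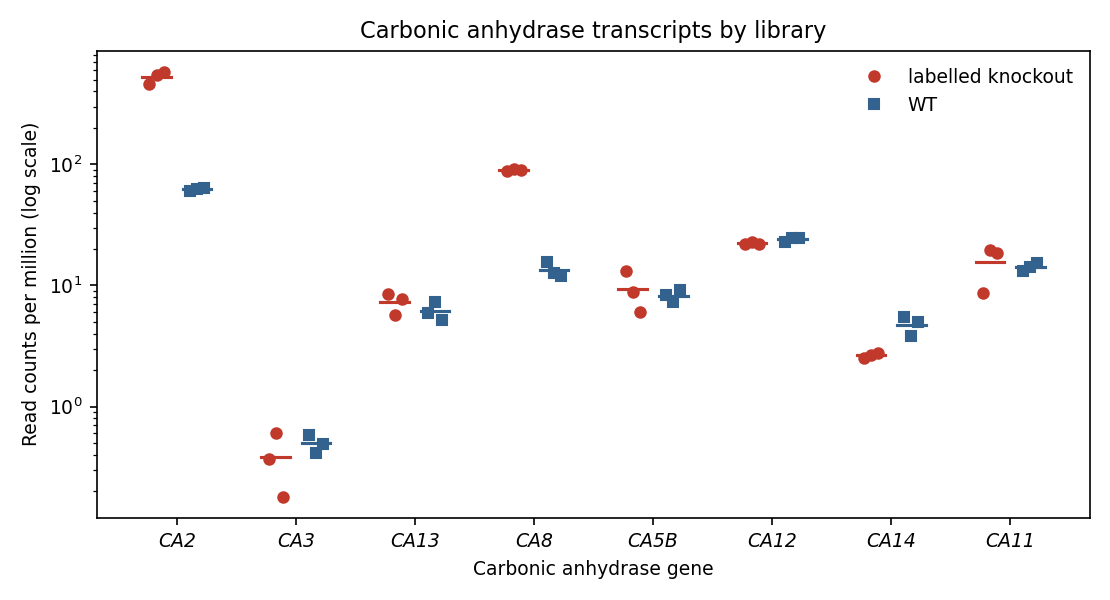
Levels (CPM) on a log scale for the 8 family members with 10 or more counts in all; circles are the 3 libraries labelled knockout, squares the 3 WT libraries, and bars the group means. CA2 and CA8 stand clear above WT in each library labelled knockout, and CA11 and CA5B spread widely within that group.

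CA8, a carbonic anhydrase-related protein that binds the inositol trisphosphate receptor ITPR1 and is abundant in Purkinje cells, rose, and its log2 fold change was the next highest in the family after that of CA2. The gene (ENSG00000178538, chromosome 8, positions 60185412 to 60281400) had 1182, 1504 and 1491 counts in the libraries labelled knockout, or 87.4, 91.3 and 89.6 CPM, against 238, 213 and 194 counts in WT, or 15.5, 12.7 and 11.9 CPM. Each library labelled knockout lay above each WT library, and replicate 1 was level with its group: the coefficient of variation was 2.18% among the libraries labelled knockout, where that of CA2 was 11.8%. The log2 fold change was 2.75 ± 0.16, a 6.71-fold rise (edgeR adjusted p = 0.000225), and it passed with each library left out in turn, at 2.66 to 2.86. CA8 was the only one of the 6 tested members other than CA2 to pass. Of the 6, 2 (CA8 and CA14) had an unadjusted edgeR p under 0.05. The share of all genes that did so was not worked out, but it lies well above the 15.1% that passed the adjusted threshold. An unadjusted edgeR p of 0.0498, that of PTPRG, became an adjusted p of 0.150. The count of 2 thus cannot be set against 15.1% and is a description only. DESeq2 also called CA8 alone, where it called 9.6% of all genes higher, 7.51% lower and 17.1% in either direction. The median log2 fold change of the 6 was 0.16, against 0.0055 over all genes tested.

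CA11 (ENSG00000063180, chromosome 19, positions 48637946 to 48646187), the secreted related protein, had 8.58, 19.5 and 18.5 CPM in replicates 1 to 3 labelled knockout, against 13.2, 14.2 and 15.2 CPM in WT. Replicate 1 lay below each WT library, and replicates 2 and 3 above each of them. Over all libraries the log2 fold change was 0.13 ± 0.30 (edgeR adjusted p = 0.787). Without replicate 1 labelled knockout it was 0.43 (adjusted p = 0.00732), in a fit that called 22.3% of all genes higher, 21.7% lower and 44.0% in either direction. Of the related-protein reads, CA8 took 91.1%, 82.4% and 82.9% in the libraries labelled knockout and 54.0%, 47.1% and 43.9% in WT. The annotated span of CA11 overlaps the pseudogene SEC1P, which had 4 to 12 counts in the libraries labelled knockout and 9 to 19 in WT.

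CA5B (ENSG00000169239, chromosome X, positions 15738270 to 15788411), which makes bicarbonate in mitochondria, had 13.2, 8.86 and 6.07 CPM in replicates 1 to 3 labelled knockout, against 8.26, 7.31 and 9.19 CPM in WT. Replicate 1 labelled knockout was the highest and replicate 3 the lowest of all 6 libraries. The log2 fold change was 0.18 ± 0.30 (edgeR adjusted p = 0.701), and -0.14 without replicate 1 labelled knockout (adjusted p = 0.602). CA5BP1, a neighbouring pseudogene joined to CA5B in an annotated readthrough transcript, had 24.0, 17.2 and 17.6 CPM in the libraries labelled knockout, against 11.8, 16.0 and 11.7 CPM in WT (log2 fold change 0.57 ± 0.21, edgeR adjusted p = 0.113). Because the sequences are alike, the split of reads between gene and pseudogene is uncertain.

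The membrane isozymes face the outside of the cell. CA12 (ENSG00000074410, chromosome 15, positions 63321378 to 63381846), a transmembrane form common in epithelia, had 22.0, 22.6 and 22.2 CPM in the libraries labelled knockout and 22.9, 24.8 and 24.6 CPM in WT. The groups did not overlap, as in 47.6% of all genes tested (23.5% higher and 24.1% lower), and the log2 fold change of -0.11 ± 0.13 did not pass edgeR (adjusted p = 0.581). CA14 (ENSG00000118298, chromosome 1, positions 150257774 to 150265078), a transmembrane form known from brain and kidney, had 2.51, 2.67 and 2.77 CPM in the libraries labelled knockout, against 5.46, 3.80 and 4.96 CPM in WT. All libraries labelled knockout were below the WT range, at 34 to 46 counts against 64 to 84. The log2 fold change of -0.84 ± 0.25 missed the threshold (edgeR adjusted p = 0.0604). Without replicate 1 labelled knockout it passed at -0.79 (adjusted p = 0.0163), in the fit that called 21.7% of all genes lower. CA12 took 89.2 ± 0.529% of the membrane isozyme reads in the libraries labelled knockout and 83.6 ± 2.99% in WT.

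CA9 (ENSG00000107159, chromosome 9, positions 35673928 to 35681159), the isozyme induced by hypoxia-inducible factors, had 0, 1 and 0 counts in the libraries labelled knockout and 0 in each WT library. CA4 (ENSG00000167434, chromosome 17, positions 60149973 to 60179021), which is held to the membrane by a lipid anchor, had 0, 0 and 1 counts in the libraries labelled knockout and likewise 0 in WT. With 0 counts over a group, up to 3 counts, or 0.0637 CPM in WT, remain possible from counting error alone. No ratio is given for either gene, since both groups lie under that limit.

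**Figure D3:**
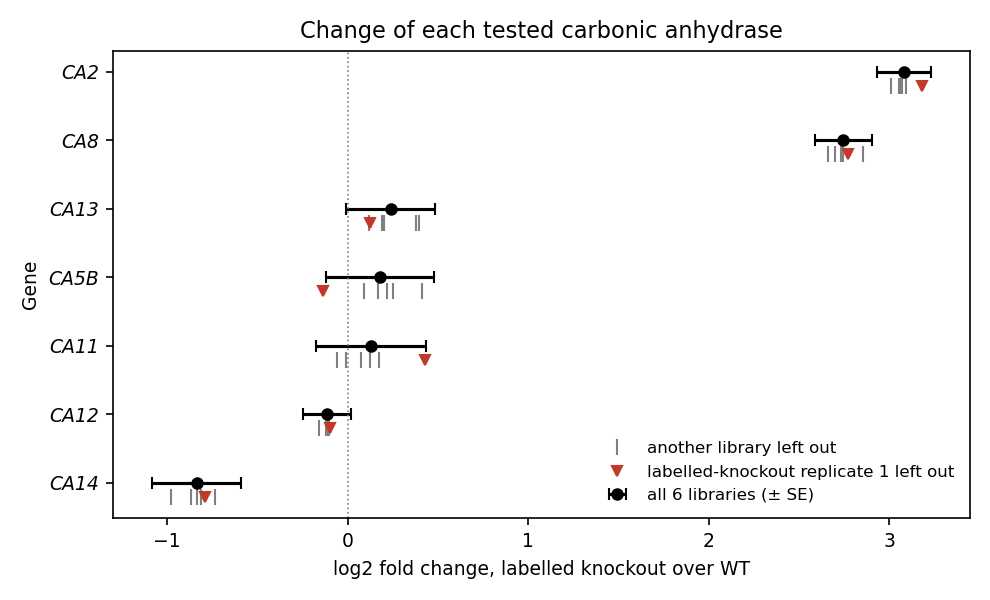
Log2 fold change, labelled knockout over WT, of the 7 tested family members: black points with bars are all 6 libraries ± standard error, grey ticks the value with another library left out, and red triangles the value without replicate 1 labelled knockout. CA2 at 3.08 and CA8 at 2.75 stand apart from the other genes, which lie between -0.84 and 0.24, and CA11 and CA5B move most when replicate 1 is left out.

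Of the 10 family members, 4 lie on chromosome 8. CA2, CA3 and CA13 belong to a cluster, with CA1 among them, and CA8 lies 25.2 Mb from CA2. Over 495 tested genes of chromosome 8 the median log2 fold change was -0.085, with 29 higher and 40 lower. For all 17452 genes tested the median was 0.0055, with 1507 (8.64%) higher and 1134 (6.5%) lower. Within 500 kb of CA2 the RefSeq table lists 33 genes, of which 22 were matched to the counts, 12 had 0 counts throughout and 6 were tested, CA2 included. The antisense RNA gene CA3-AS1 had 14, 41 and 29 counts in the libraries labelled knockout against 4, 8 and 2 in WT, with a log2 fold change of 2.59 ± 0.58. It reached the filter's level of 0.626 CPM in the libraries labelled knockout alone, so it could enter the test only by being higher there, and no p is read from it. Its span overlaps the CA2 gene by 909 bases. Strand and counting options were not stated, so it is not known whether reads in that overlap went to CA3-AS1, to CA2 or to the ambiguous reads. The other tested neighbours, all on the side of CA13, did not pass: LRRCC1 had a log2 fold change of 0.24 ± 0.28, the cell cycle factor gene E2F5 0.15 ± 0.21 and RBIS -0.27 ± 0.20 (edgeR adjusted p from 0.379 to 0.637). CA1, the abundant red cell isozyme, lies 85.9 kb from CA2 and had 7, 1 and 3 counts in the libraries labelled knockout and 2, 0 and 0 in WT, so that its ratio was 5.39 (95% counting interval 1.18 to 50.1). Near CA8, looked at after its rise was seen, the vesicle traffic gene RAB2A had a log2 fold change of -0.34 ± 0.14 and LINC01301 of -0.53 ± 0.42, and neither passed (edgeR adjusted p = 0.149 and 0.410).

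**Figure D4:**
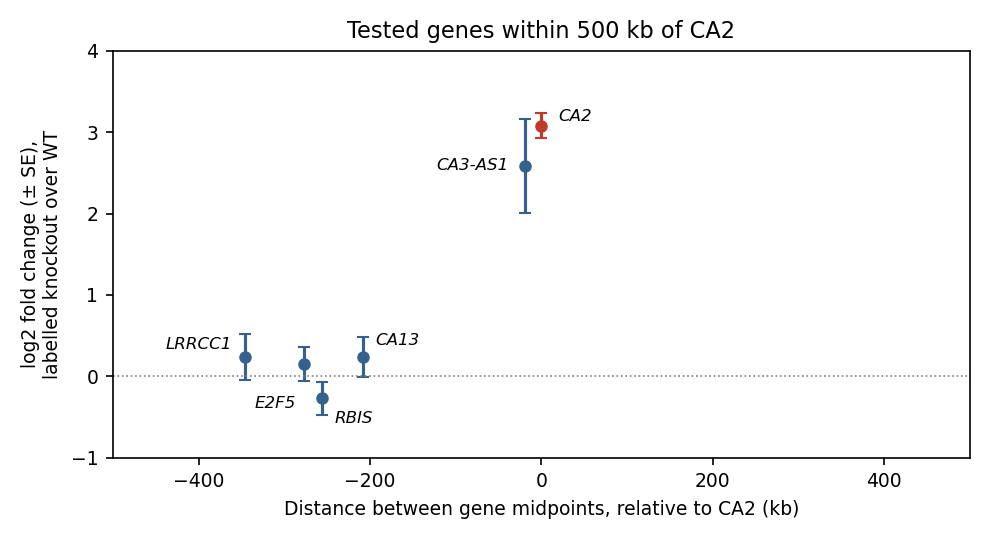
Log2 fold change, labelled knockout over WT, with standard errors, of the 6 tested genes within 500 kb of CA2, against the distance in kb between each gene's midpoint and that of CA2. CA2 and the overlapping CA3-AS1 lie at 3.08 and 2.59, and LRRCC1, E2F5, RBIS and CA13 between -0.27 and 0.24.

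Of the other catalytic isozymes and related genes of the family, several were at or near 0. CA6 and CA10 had 0 counts in all 6 libraries, CA5A had 2 in the group labelled knockout and 0 in WT, and CA7 had 6 in the group labelled knockout and 9 in WT. The receptor phosphatases PTPRG and PTPRZ1 carry a carbonic anhydrase-like domain outside the cell. PTPRZ1 had 20, 20 and 19 counts in the libraries labelled knockout against 0 in each WT library, at least 19.3-fold higher when 3 counts over the WT group are set in place of 0. It too passed the filter through the libraries labelled knockout alone, so no p is read from it. PTPRG had 100.1, 63.9 and 65.8 CPM in the libraries labelled knockout and 49.9, 61.4 and 51.9 CPM in WT, and did not pass (log2 fold change 0.49 ± 0.21, edgeR adjusted p = 0.150). PTPRG and CA5BP1 were called higher without replicate 1 labelled knockout, in the fit that called 22.3% of all genes higher.

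The genes whose pattern over the 6 libraries was most like that of CA2, by Pearson's r on log2 CPM among 11714 genes with a mean of at least 5 CPM, were LINC00839, EPDR1, TBCD, CELSR3 and SLC7A3, each with r of 0.999. The 6 points fall into the same 2 groups and share libraries and depth, so r is a description only. EPDR1 and SLC7A3 had 0 counts in each WT library. TBCD, a tubulin folding cofactor, had 169.6, 178 and 174 CPM in the libraries labelled knockout against 88.5, 88.9 and 89.4 CPM in WT. The cadherin receptor gene CELSR3 had 78.5, 92.7 and 87.3 CPM in the libraries labelled knockout against 15.4, 17.1 and 16.6 CPM in WT. CA8 had r of 0.994 and was the 41st.

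Genes that bring bicarbonate across membranes were split. Of 19 SLC4 and SLC26 transporters 14 were tested. Of these, 3 were called higher, 3 lower and 8 did not pass, with a median log2 fold change of -0.24. Over all genes tested, 8.64% were called higher and 6.5% lower. The sodium bicarbonate cotransporter genes SLC4A4 and SLC4A7 rose. SLC4A4 had 29.0, 14.6 and 16.9 CPM in the libraries labelled knockout against 7.15, 7.48 and 5.88 CPM in WT (log2 fold change 1.56 ± 0.29, edgeR adjusted p = 0.0151). SLC4A7 had 226, 110.3 and 133 CPM in the libraries labelled knockout against 79.6, 77.6 and 72.7 CPM in WT (1.03 ± 0.27, adjusted p = 0.0416). SLC26A7, the other gene called higher, was at a low level. It passed the filter through the libraries labelled knockout alone, so no p is read from it. The anion exchangers SLC4A2 and SLC4A3 and the boron transporter-like SLC4A11 fell. SLC4A2 had 51.2, 94.9 and 79.4 CPM in the libraries labelled knockout against 210, 214 and 203 CPM in WT (-1.47 ± 0.23, adjusted p = 0.00789). Replicate 1 labelled knockout was the most extreme library for SLC4A2, SLC4A4 and SLC4A7, and without it 3 rose and 5 fell, where 44.0% of all genes were called. SLC4A2 kept its call whichever library was left out, and the other 5 calls were lost without any 1 WT library, in fits that called 3.54% to 3.69% of all genes.

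Of the bicarbonate-using enzymes, CPS1 stood out. It makes carbamoyl phosphate from bicarbonate and ammonia in mitochondria, and had 73.1, 48.5 and 51.8 CPM in the libraries labelled knockout against 5.66, 5.58 and 7.29 CPM in WT (log2 fold change 3.22 ± 0.23, edgeR adjusted p = 0.000449). The biotin carboxylase subunit gene MCCC1 fell, at 17.3 ± 0.903 CPM in the libraries labelled knockout and 27.8 ± 2.32 CPM in WT (-0.69 ± 0.15, adjusted p = 0.0225). The other 8 of the 10 tested did not pass, and the median of the list was 0.15. Among all genes tested, 8.64% were called higher and 6.5% lower. CPS1 kept its call whichever library was left out, and MCCC1 lost it without any 1 WT library, in fits that called 3.54% to 3.69% of all genes. Without replicate 1 labelled knockout 3 rose and 2 fell of 10, a share near the 44.0% of all genes called in that fit.

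The partners of the related proteins were also measured. Of the 5 tested, 2 rose and 1 fell, beside 8.64% called higher and 6.5% lower over all genes tested. The list joins inositol trisphosphate receptor genes, all with log2 fold changes above 0, and tested neurexin genes, all below 0. Its median log2 fold change of 1.04 thus marks no shift of the list as a whole. The inositol trisphosphate receptor genes ITPR1, to which CA8 binds, and ITPR3 rose. ITPR1 had 72.5, 46.6 and 41.4 CPM in the libraries labelled knockout against 23.5, 26.7 and 21.5 CPM in WT (1.16 ± 0.24, edgeR adjusted p = 0.0197), and ITPR3 had 164.7, 125 and 113 CPM in the libraries labelled knockout against 58.0, 68.8 and 64.5 CPM in WT (1.08 ± 0.18, adjusted p = 0.0101). ITPR2 (1.04 ± 0.34, adjusted p = 0.0807) and the neurexin gene NRXN2 (-1.03 ± 0.29, adjusted p = 0.0557) missed the threshold. The neurexin gene NRXN3, of the family that CA10 and CA11 bind, fell to 2.43 ± 0.405 CPM in the libraries labelled knockout, against 8.47 ± 1.47 CPM in WT (-1.80 ± 0.25, adjusted p = 0.00485). NRXN3 kept its call whichever library was left out, and ITPR1 and ITPR3 lost theirs without any 1 WT library, in fits that called 3.54% to 3.69% of all genes. Without replicate 1 labelled knockout 3 rose and 2 fell, where 44.0% of all genes were called.

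Of 19 genes of proton and lactate export or proton sensing 16 were tested, and 2 rose, 2 fell and 12 did not pass (median log2 fold change 0.0083). The shares called over all genes tested were 8.64% higher and 6.5% lower. The monocarboxylate transporter gene SLC16A7 had 21.9, 7.71 and 8.96 CPM in the libraries labelled knockout against 0.325, 0.178 and 0.245 CPM in WT, with replicate 1 labelled knockout the highest. SLC16A7 is counted among those that rose, but it passed the filter through the libraries labelled knockout alone, so no p is read from it. NHERF1, counted under its older name SLC9A3R1, is a scaffold of sodium-proton exchangers and rose (1.03 ± 0.18, adjusted p = 0.0118). The exchanger gene SLC9A5 fell. The proton channel gene HVCN1 is counted among those that fell, but it reached the filter's level in 3 WT libraries and only 1 labelled knockout. HVCN1 thus passed the filter through WT, so no p is read from it. BSG, which carries lactate transporters to the membrane, had a log2 fold change of -0.39 ± 0.38 and did not pass (adjusted p = 0.505). The calls of SLC9A3R1, SLC9A5 and HVCN1 were lost without any 1 WT library, in fits that called 3.54% to 3.69% of all genes. Without replicate 1 labelled knockout 4 rose and 6 fell, where 44.0% of all genes were called.

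Of 25 tested genes of the hypoxia pathway, of which CA9 is a known target, 2 rose, 3 fell and 20 did not pass, with a median log2 fold change of -0.094. Over all genes tested, 8.64% were called higher and 6.5% lower. EPAS1, a hypoxia-inducible factor subunit, had 60.4, 63.7 and 53.9 CPM in the libraries labelled knockout against 29.6, 33.1 and 32.7 CPM in WT (0.90 ± 0.14, edgeR adjusted p = 0.00788), and the peptide hormone gene ADM rose. The glucose transporter gene SLC2A1, the collagen hydroxylase gene P4HA1 and the aldolase gene ALDOC fell; SLC2A1 had 67.8, 87.5 and 80.3 CPM in the libraries labelled knockout against 125.1, 132 and 130.1 CPM in WT (-0.72 ± 0.14, adjusted p = 0.0188). All 5 calls were lost without any 1 WT library, in fits that called 3.54% to 3.69% of all genes, and without replicate 1 labelled knockout 7 rose and 9 fell, where 44.0% of all genes were called.

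**Figure D5:**
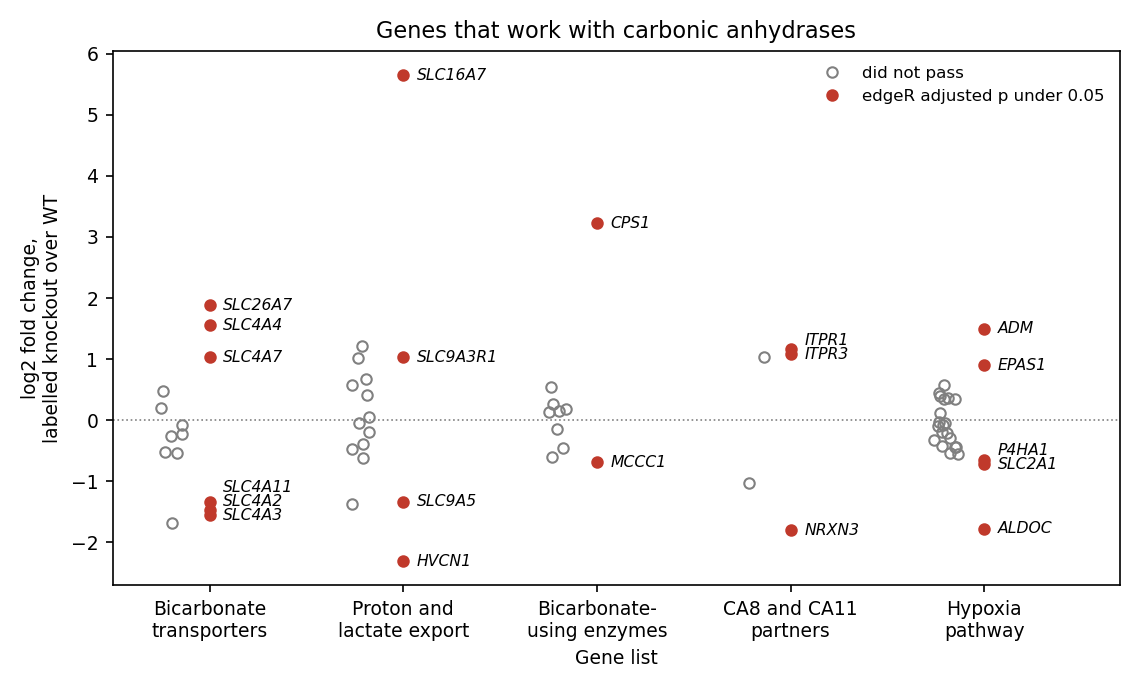
Log2 fold change, labelled knockout over WT, of the tested genes in 5 lists around the carbonic anhydrases; filled points with names passed edgeR's adjusted threshold of 0.05 and open points did not. CPS1 at 3.22 is the highest of the bicarbonate-using enzymes, and the bicarbonate transporters hold 3 genes called higher and 3 called lower. SLC26A7, among those 3 called higher, and SLC16A7 passed the filter through the libraries labelled knockout alone. HVCN1, called lower, passed it through WT.

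Over all 12 lists 26 of 91 tested genes were called, or 28.6%, beside 15.1% of all genes tested. Of the 26, 8 kept their call and direction whichever library was left out, or 8.79% of the 91, beside 3.33% of all genes: CDH2, CPS1, EYA1, NEFL, NRXN3, PTPRZ1, SLC16A7 and SLC4A2. Calls were also lost without libraries labelled knockout. Without replicate 2 of that group 20 of the 26 were kept, and without replicate 3 14 were, in fits that called 14.9% and 6.48% of all genes. Of the 26 calls, 4 (ATP4A, PTPRZ1, SLC16A7 and SLC26A7) reached the filter's level in the higher group alone and had to differ to be tested. HVCN1 reached it in 3 WT libraries and only 1 labelled knockout, so it too passed through its higher group. These counts thus support nothing about the lists.

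Most markers of cell types known for CA2 were low or at 0 counts, but EPOR, TNFRSF11A and OLIG2 were clearly expressed. Of 12 erythroid genes 1 was tested, EPOR, which did not pass; HBB, HBG1, HBG2 and GYPB had 0 counts throughout, and the list summed to 6.58 to 24.3 CPM in the libraries labelled knockout and 24.6 to 26.4 CPM in WT. Of 8 osteoclast genes 4 were tested and 0 were called by edgeR. An unadjusted edgeR p under 0.05 was reached by 1 higher and 1 lower gene, and by well over 15.1% of all genes, so this is a description only. DCSTAMP had 0 counts, and the list summed to 25.4 to 31.3 CPM in the libraries labelled knockout and 23.3 to 25.2 CPM in WT. TNFRSF11A, the largest part of that sum, had 14.9, 18.1 and 16.6 CPM in the libraries labelled knockout and 15.3, 13.3 and 14.3 CPM in WT. The osteoclast protease gene CTSK had 5.55, 8.50 and 11.6 CPM in the libraries labelled knockout against 4.36, 3.98 and 4.35 CPM in WT, without overlap (log2 fold change 1.02 ± 0.29, edgeR adjusted p = 0.0584). It was called higher by DESeq2 (adjusted p = 0.0282) and by edgeR without the filter (0.0488). CTSK was also called by edgeR without replicate 1 labelled knockout (1.4e-05), in the fit that called 22.3% of all genes higher. Its adjusted p was 0.0549 to 0.196 under the other 8 alternatives. The kidney intercalated cell list summed to 1.85 to 2.58 CPM in the libraries labelled knockout and 2.15 to 2.55 CPM in WT, with FOXI1, a defining factor of these cells, at 0 counts. For gastric parietal cells the sums were 0.486 to 0.721 CPM in the libraries labelled knockout and 1.59 to 2.54 CPM in WT. ATP4A was called lower, but it passed the filter through WT alone, so no p is read from it. For oligodendrocytes, which express CA2 in brain, sums were 7.54 to 14.5 CPM in the libraries labelled knockout and 21.3 to 24.5 CPM in WT. OLIG2 made up most of these sums, at 4.44, 10.4 and 9.56 CPM in the libraries labelled knockout against 15.5, 18.1 and 19.4 CPM in WT. It missed the threshold (log2 fold change -1.11 ± 0.31, edgeR adjusted p = 0.0549). MOG had 0 counts, and MBP was called lower. The calls of ATP4A and MBP were lost without any 1 WT library, and without replicate 2 or 3 labelled knockout. The part of these markers in the results was not tested.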

How the data were processed

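The files deposited by the authors hold whole-number read counts per gene and library, not normalised. The submitters' processing notes name HISAT2 2.2.1 and HTSeq 0.12.4 and the GRCh38 build; counting options and strand are not given in the sources used here. Reads in no feature (8.75% to 15.9%) and ambiguous reads (9.74% to 12.5%) entered neither library sizes nor tests. Replicate 1 labelled knockout had 15.9% in no feature and 9.74% ambiguous. The other libraries had 8.75% to 10.8% and 11.6% to 12.5%. Symbols came from a gene table that named 68.3% of Ensembl identifiers, and coordinates and promoters from RefSeq (GRCh38.p14). Deposited mitochondrial coverage was not used here.

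A group-only quasi-likelihood fit in edgeR 4.0.16 (R 4.3.3; TMM scaling, filterByExpr) gave p-values, adjusted by Benjamini and Hochberg's method over all 17452 genes. The fit was tested on simulated data. There it recovered 25% of 100 genes changed 2-fold and 92% of 100 changed 4-fold, with 6 false calls. A gene that did not pass may thus still have changed. The simulation changed few of its 17001 genes, and no library stood apart as replicate 1 labelled knockout did. Its rates of recovery and false calls may therefore not hold for these libraries. Shares were compared by exact permutation. Length-scaled shares had been planned, but no transcript lengths were used here, so shares are of counts. Alternatives were DESeq2 1.42.0, other scalings, no filter, leaving out each library, and blocking by replicate number.

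Family members and lists were chosen with earlier results of these data known. Named are the members, C17orf80, up to 4 called genes per direction and 2 others per list, the 5 genes most like CA2 and genes within 500 kb of CA2. Genes at 0 counts were given a limit of 3 counts over the group. No libraries were duplicates by a chi-square comparison of counts.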

Additional observations from a re-analysis of the deposited data

How the results depend on the processing

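Under DESeq2, DESeq2 size factors, library totals alone and no filter on low counts, 1 family member other than CA2 was called higher, CA8, and 0 lower. CA2 kept a log2 fold change between 3.01 and 3.18 and CA8 between 2.66 and 2.86 under all 11 alternatives run. Leaving out 1 library gave 1 to 2 members called higher and 0 to 1 lower. The extra calls, CA11 higher and CA14 lower, came without replicate 1 labelled knockout, in the fit that called 44.0% of all genes. Over the related lists 12 genes were called higher and 14 lower, and leaving out 1 library gave 4 to 26 higher and 4 to 30 lower. Replicate numbers did not pair the libraries (correlations of same-numbered deviations -0.0585, -0.0289 and 0.0022). With the replicate number as a block the lists had 7 called higher and 6 lower, the family 1 and 0, and the block called 5.55% of all genes, against 15.1% without it and 3.54% to 44.0% with 1 library left out; the cause was not tested. The membrane share difference was -6.06 points with same-number differences averaged as a block (exact p = 0.25, the smallest possible) and -8.22 to -2.51 points with 1 library left out. With 1 WT library left out the WT compartment shares moved by less than their SD. Length-scaled shares and coding lengths were not run. At this depth CA3, CA4 and CA9 had too few counts to pass the filter.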
